A study of Mus musculus with 32 samples.

Results

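The 9 genes described here are grouped under the mitochondrial oxidation of fatty acids: Ppara, Cpt1a, Cpt1c, Cpt2, Acadvl, Acadl, Acadm, Hadha and Hadhb. They are a list of names, and the rule that picks them from the table uses no measured value, but the list was drawn up with earlier results of these data known. All 9 were found among the 55414 Ensembl gene IDs of the deposited count table by their GENCODE symbols, and all 9 passed the filter on low counts. The set was proposed under the heading of oxidation and ketogenesis, but no member is an enzyme of ketone body synthesis. Genes of ketone body use and transport are described below from a list of their own.

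Long-chain fatty acids enter mitochondria as carnitine esters, made by a carnitine palmitoyltransferase of the outer membrane and turned back into acyl-CoA by another of the inner membrane. Beta-oxidation then shortens the chain in repeated rounds of dehydrogenation, hydration, further dehydrogenation and thiolysis, with separate dehydrogenases for long and medium chains. The nuclear receptor PPARα, encoded by Ppara, activates many of these genes in liver, heart and muscle, and in liver the acetyl-CoA formed can be passed to ketone bodies.

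The cells were passage 1 cardiac fibroblasts of mice with a floxed Pkm allele (Pkm2fl/fl, C57BL/6J), and their poly(A) RNA was sequenced. Pkm encodes pyruvate kinase, and all 8 groups carry the floxed allele. The cells had been grown with 10% serum, 1% insulin-transferrin-selenium and 20 ng/ml of bFGF, the basic fibroblast growth factor. They then received iCre, a recombinase that cuts the floxed allele, or the control gene LacZ, by a vector that is not described further. Cultures of each were then treated for 24 h with bFGF (20 ng/ml), with the cytokine interleukin-1 beta, written IL-1b here (15 ng/ml), or with transforming growth factor beta, written TGFb (10 ng/ml), or were given no stimulus. The last are labelled SS, which is not spelled out, although a protocol speaks of stimulation under serum starvation. The 8 groups, iCre and LacZ in bFGF, IL-1b, TGFb and SS, hold 4 libraries each, numbered 1 to 4. The doses stand in a protocol that otherwise names TAK1fl/fl mice and a TNFa arm, and for the 16 LacZ libraries titles and treatment tags disagree. Groups were taken from the titles.

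Total counts were 24425678 to 34995038 in the 16 iCre libraries and 20736203 to 29133901 in the 16 LacZ libraries. Pkm, the targeted gene, stood at 0.577 to 0.865 of the LacZ level in the iCre libraries and was lower in each of 16 pairs matched by condition and number. Gene-level counts do not separate its isoforms. Cardiac fibroblast markers summed to 21273 to 66736 counts per 1000000 reads (CPM, scaled by TMM factors) in the 32 libraries. Same-numbered libraries resembled each other across groups. What a number stands for (mouse, isolation or day) is not in the labels, so the p-values measure a spread that may be technical. Number 4 differed from the others in member levels and in some marker sums. Its 10 leukocyte markers summed to 34.6 to 106 CPM, which overlapped number 2 at 64.2 to 165 CPM. Numbers 1 and 3 had 175 to 389 CPM and 340 to 873 CPM. Cardiac fibroblast sums had a median of 32035 CPM in number 4, against 50002, 52787 and 44768 CPM in numbers 1 to 3. Mural cell sums had a median of 199 CPM, against 401, 561 and 411 CPM. The ranges of both overlapped. In number 4, 6 of the 9 genes were above the mean of the other numbers in 8 of 8 groups, by 0.32 (Cpt1c) to 0.83 (Ppara) on the log2 scale on average. Acadvl and Hadha were below it in 8 of 8 groups, with mean differences of -0.22 and -0.15. The part of the leukocytes and other cells in these differences was not tested. Counts of called genes are therefore given below also with the number as a block and without the 8 libraries of number 4.

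The promoter windows of 4 genes are shown because they represent the patterns in the data below. Hadha and Hadhb encode the alpha and beta subunits of the mitochondrial trifunctional protein, and both varied little. Under TGFb Cpt1a and Acadm fell and Acadvl rose. Each window runs from 250 bases before to 50 bases after the gene start of RefSeq on GRCm38.p6, and all 9 members matched a window. Hadha and Hadhb are read away from each other, with RefSeq starts 273 bases apart, so their windows overlap on chromosome 5 by 228 bases. In the Hadhb window (chr5:30155003-30155302, plus strand) capitals mark the bases that the Hadha window also holds.
Hadhb: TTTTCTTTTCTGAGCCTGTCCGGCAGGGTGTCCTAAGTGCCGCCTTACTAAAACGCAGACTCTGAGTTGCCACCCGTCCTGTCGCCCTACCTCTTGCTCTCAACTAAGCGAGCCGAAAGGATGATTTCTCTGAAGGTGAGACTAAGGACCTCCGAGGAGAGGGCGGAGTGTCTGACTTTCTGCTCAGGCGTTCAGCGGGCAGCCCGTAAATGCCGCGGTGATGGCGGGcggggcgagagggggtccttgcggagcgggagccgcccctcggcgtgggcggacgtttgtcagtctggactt
In the next windows capitals mark the hexamer AGGTCA, the unit of the recognition sites of PPAR and of many other nuclear receptors, which reads TGACCT where it lies on the other strand. The Cpt1a window is chr19:3323051-3323350 (plus strand), with the hexamer starting at position -94 when the start is position 0. The Acadm window is chr3:153944594-153944893 (minus strand), with the hexamer at position -249. The Acadvl window is chr11:70015379-70015678 (minus strand), with the hexamer at position -87.
Cpt1a: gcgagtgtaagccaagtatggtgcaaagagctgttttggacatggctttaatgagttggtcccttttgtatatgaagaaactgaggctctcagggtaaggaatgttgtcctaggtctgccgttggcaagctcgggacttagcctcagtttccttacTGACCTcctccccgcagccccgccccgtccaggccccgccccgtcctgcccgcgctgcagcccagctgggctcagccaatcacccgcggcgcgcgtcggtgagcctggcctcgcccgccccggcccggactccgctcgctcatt
Acadm: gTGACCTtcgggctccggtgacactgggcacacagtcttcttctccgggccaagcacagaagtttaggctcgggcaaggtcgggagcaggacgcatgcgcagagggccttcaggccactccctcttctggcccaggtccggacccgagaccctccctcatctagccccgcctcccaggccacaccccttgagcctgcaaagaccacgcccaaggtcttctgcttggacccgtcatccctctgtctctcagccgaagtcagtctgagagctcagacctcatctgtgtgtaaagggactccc
Acadvl: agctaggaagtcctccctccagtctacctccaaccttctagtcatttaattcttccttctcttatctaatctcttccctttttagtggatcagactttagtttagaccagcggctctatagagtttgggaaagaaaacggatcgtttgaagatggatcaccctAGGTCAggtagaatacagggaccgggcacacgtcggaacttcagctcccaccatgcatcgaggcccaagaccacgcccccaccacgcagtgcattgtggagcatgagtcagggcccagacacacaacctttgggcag
The hexamer was searched on both strands and was present in the windows of 4 of the 9 members, the fourth being Cpt1c at position -146. It was present in 16.3% of all 32851 windows. The element TNAAGGTCA of the estrogen-related receptors, which contains the hexamer, was in 0 of the 9 windows and 1.28% of all windows. The direct repeat of the hexamer with 1 base between, known as DR1, was in 0 of the 9 windows and 0.0396% of all windows. With 1 mismatch allowed in each hexamer it was in 0 of the 9 and 2.40% of all. Of the members with the hexamer Cpt1a, Cpt1c and Acadm fell under TGFb and Acadvl rose. The window of Ppara, which showed the largest fall, did not hold it. Sites outside the windows were not searched, and the part of the hexamer in these changes was not tested.

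Levels between genes were compared per kilobase of merged exons, since CPM grows with transcript length. In the SS cultures the acyl-CoA dehydrogenases Acadvl and Acadl were highest, at 40.0 ± 4.21 and 37.8 ± 9.40 CPM per kb in iCre and 38.5 ± 2.92 and 36.1 ± 6.53 CPM per kb in LacZ (SD, n = 4 each, as throughout). Cpt1a followed at 30.1 ± 4.29 CPM per kb in iCre and 30.2 ± 1.06 in LacZ. Acadm, Hadha and Cpt1c lay between 17.1 and 21.4 CPM per kb in both vectors, Cpt2 at 12.8 in iCre and 13 in LacZ, and Hadhb at 9.08 in iCre and 9.13 in LacZ. Ppara was the lowest member, at 0.300 ± 0.104 CPM per kb in iCre and 0.351 ± 0.105 in LacZ. Its relatives were higher: Ppard had 5.79 ± 0.214 CPM per kb in iCre SS and 5.31 ± 0.593 in LacZ SS, and Pparg had 3.29 ± 1.52 and 2.75 ± 0.743.

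In heart muscle Cpt1b is the main form of the outer carnitine palmitoyltransferase. In these cultures it was at most 0.881 CPM in any library and held at most 0.678% of the summed Cpt1 level per kb. Cpt1a held 63.6 ± 3.50% and Cpt1c 36.1 ± 3.45% in iCre SS, and in LacZ SS the shares were 61.3 ± 1.91% and 38.5 ± 1.76%. Of 9 cardiomyocyte markers 7 stayed below 1 CPM in every library. Tnnt2, cardiac troponin T, made up 93.2% of that list's level.

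**Figure D1:**
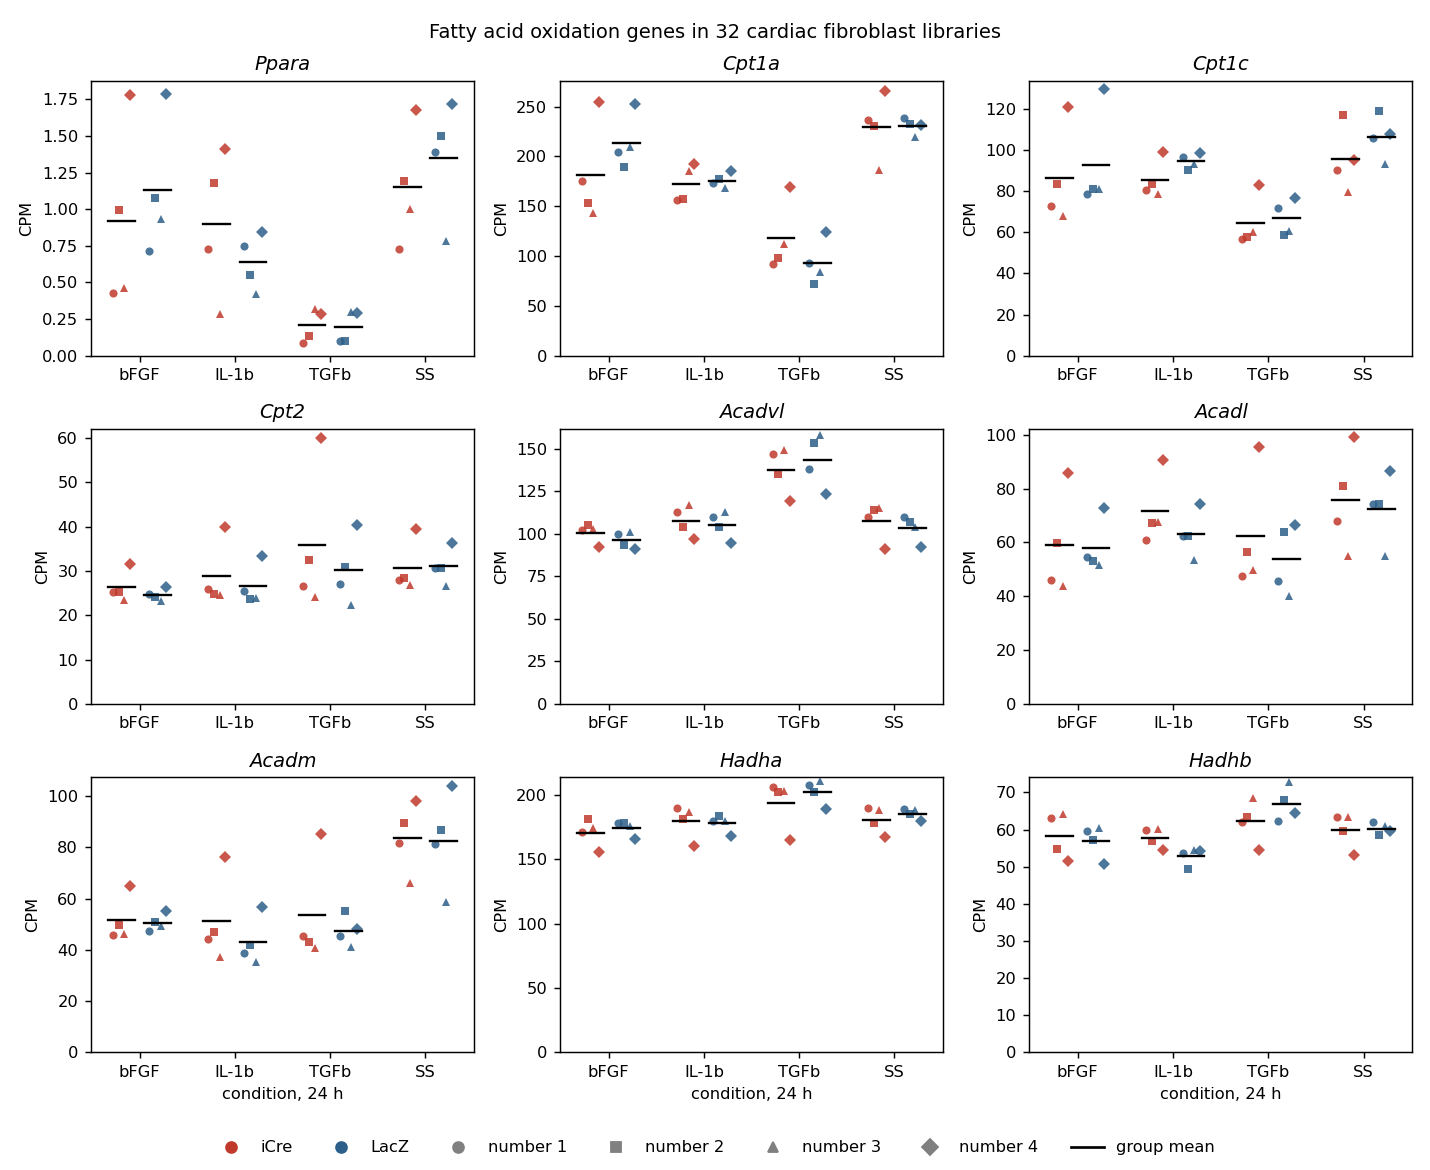
CPM (linear axes from 0) of the 9 genes in each library, by condition; red is iCre and blue LacZ, symbols give the library number and bars the group mean. The group means of Ppara, Cpt1a and Cpt1c are lowest under TGFb and those of Acadvl highest, the Acadm means are lower under every stimulus than in SS, and Hadha and Hadhb are nearly level.

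TGFb moved the most members, and in both directions. The receptor gene Ppara, the outer-membrane transferase gene Cpt1a, its relative Cpt1c and the medium-chain dehydrogenase gene Acadm fell, while the very-long-chain dehydrogenase gene Acadvl rose. Tests compared 8 group means in edgeR (quasi-likelihood, Benjamini-Hochberg over 16760 genes), and a gene was called at an adjusted p under 0.05. In iCre cells 4 of 9 members fell and 1 rose, where 18.1% of all genes fell and 20.2% rose. The same counts were found in LacZ cells, 4 of 9 falling and 1 rising, where 22.9% and 23.4% of all genes did. The median log2 fold change of the 9 was -0.28 in iCre and -0.43 in LacZ, beside -0.046 and -0.058 over all genes. The comparisons of all stimuli within a vector share that vector's 4 SS libraries.

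Ppara (ENSMUSG00000022383, chr15:85734983-85802819, GRCm38, plus strand) showed the largest change. In iCre libraries 1 to 4 it had 0.0846, 0.133, 0.320 and 0.287 CPM under TGFb, against 0.728, 1.19, 0.999 and 1.68 CPM in SS. In LacZ libraries 1 to 4 it had 0.102, 0.0985, 0.295 and 0.294 CPM under TGFb, against 1.39, 1.5, 0.783 and 1.72 CPM in SS. All 8 TGFb libraries lay below all 8 SS libraries. The log2 fold change was -2.43 ± 0.53 in iCre (SE, adjusted p = 0.000659) and -2.72 ± 0.54 in LacZ (adjusted p = 0.000189). These TGFb values rest on 2 to 9 reads per library, so they are imprecise, with 95% intervals of the fold from 0.0879 to 0.394 in iCre and 0.0704 to 0.328 in LacZ.

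Cpt1a (ENSMUSG00000024900, chr19:3322334-3385733, plus strand) encodes the malonyl-CoA-sensitive outer-membrane transferase that limits entry of long-chain fatty acids. It had 92.0, 98.5, 112 and 169 CPM in iCre libraries 1 to 4 under TGFb, against 237, 231, 186 and 266 CPM in iCre SS. LacZ libraries had 93.1, 72.1, 84.1 and 124 CPM under TGFb, against 239, 233, 220 and 232 CPM in SS. The groups did not overlap in either vector, and number 4 was the highest TGFb library in both. Cpt1a fell to 0.512 of the SS level in iCre (log2 -0.97 ± 0.18, adjusted p = 0.000123) and to 0.404 in LacZ (log2 -1.31 ± 0.18, adjusted p = 1.78e-06).

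Cpt1c (ENSMUSG00000007783, chr7:44959372-44974851, minus strand) encodes the third form of the transferase, known from neurons and the endoplasmic reticulum, with little catalytic activity. It had 56.9, 57.8, 60.4 and 83.2 CPM in iCre under TGFb, against 90.6, 117, 79.8 and 95.4 CPM in iCre SS. In LacZ it had 72, 58.6, 60.7 and 76.7 CPM under TGFb, against 106, 119, 93.5 and 108 CPM in SS. The LacZ groups did not overlap, and in iCre the TGFb library of number 4 reached above the SS library of number 3. The log2 fold change was -0.57 ± 0.17 in iCre (adjusted p = 0.00944) and -0.67 ± 0.17 in LacZ (adjusted p = 0.00205). The Cpt1c share of the Cpt1 level per kb was 43.0 ± 2.39% in iCre TGFb against 36.1 ± 3.45% in iCre SS, and 49.6 ± 3.03% in LacZ TGFb against 38.5 ± 1.76% in LacZ SS. An antisense gene, 6530437J22Rik, overlaps 366 exon bases of Cpt1c, and the strand setting of the counting is not given in the sources used here. That gene had 203 reads over all libraries and Cpt1c 75977.

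Acadm (ENSMUSG00000062908, chr3:153922357-153944632, minus strand), the medium-chain acyl-CoA dehydrogenase, had 45.4, 42.9, 40.5 and 85.3 CPM in iCre under TGFb, against 81.7, 89.5, 66.1 and 98.0 CPM in iCre SS. In LacZ it had 45.3, 55.0, 41.0 and 48.0 CPM under TGFb, against 81.3, 86.8, 58.6 and 104 CPM in SS. The LacZ groups did not overlap, whereas the iCre TGFb library of number 4 lay within the SS range. The log2 fold change was -0.65 ± 0.22 in iCre (adjusted p = 0.0233) and -0.81 ± 0.22 in LacZ (adjusted p = 0.00447). The iCre call was lost without any 1 of 5 libraries (SS numbers 2 and 4, TGFb numbers 1, 2 and 3), with adjusted p up to 0.0855. It was also lost when only the groups compared were fitted (log2 -0.65, adjusted p = 0.0898). The iCre call was kept with the number as a block and without number 4, and Acadm was lower in 4 of 4 numbered pairs.

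Acadvl (ENSMUSG00000018574, chr11:70010183-70015411, minus strand), the very-long-chain acyl-CoA dehydrogenase that takes the first step of beta-oxidation, went the other way. It had 147, 135, 149 and 119 CPM in iCre under TGFb, against 110, 114, 115 and 90.7 CPM in iCre SS. LacZ libraries had 138, 153, 158 and 123 CPM under TGFb, against 110, 107, 104 and 92.3 CPM in SS. Every TGFb library lay above every SS library of its vector. The log2 fold change was 0.36 ± 0.09 in iCre (adjusted p = 0.00313) and 0.47 ± 0.09 in LacZ (adjusted p = 0.000170). Scaling by total counts alone moved the median of all genes to -0.27 in iCre and -0.26 in LacZ. The Acadvl change was then 0.14 in iCre (adjusted p = 0.15, no longer called) and 0.27 in LacZ (adjusted p = 0.00472). Acadvl exons overlap those of Dvl2 on the opposite strand by 1151 bases, and reads of these genes may be split or lost there.

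The other dehydrogenase and the inner-membrane transferase did not pass the test under TGFb. Acadl (ENSMUSG00000026003, chr1:66830839-66863277, minus strand), the long-chain acyl-CoA dehydrogenase, averaged 62.2 ± 22.4 CPM in iCre TGFb and 75.7 ± 18.8 CPM in iCre SS, and 54.0 ± 13 CPM in LacZ TGFb and 72.5 ± 13.1 CPM in LacZ SS. Its log2 fold change was -0.28 ± 0.23 in iCre (adjusted p = 0.349) and -0.43 ± 0.23 in LacZ (adjusted p = 0.136), lower in 4 of 4 numbered pairs of each vector. With the number as a block it was called, at -0.30 in iCre (adjusted p = 0.0225) and -0.44 in LacZ (adjusted p = 0.00135). Cpt2 (ENSMUSG00000028607, chr4:107903981-107923610, minus strand), which hands the acyl group back to CoA inside the mitochondrion, averaged 35.8 ± 16.6 CPM in iCre TGFb and 30.7 ± 5.89 CPM in iCre SS. In LacZ it averaged 30.1 ± 7.59 CPM under TGFb and 31 ± 3.94 CPM in SS. The iCre mean rests on number 4, at 60.1 CPM beside 24.1 to 32.4 CPM in the other numbers, and the 95% intervals of the log2 difference were -0.23 to 0.67 in iCre and -0.50 to 0.41 in LacZ.

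Hadha (ENSMUSG00000025745, chr5:30118304-30155162, minus strand) and Hadhb (ENSMUSG00000059447, chr5:30155248-30184593, plus strand) carry the long-chain steps that follow the acyl-CoA dehydrogenase. Hadha group means ranged from 171 to 202 CPM and Hadhb group means from 52.9 to 67.0 CPM over all 8 groups. Under TGFb Hadha averaged 194 ± 19.6 CPM against 181 ± 10.7 CPM in SS in iCre (log2 0.10 ± 0.07, adjusted p = 0.267). In LacZ it averaged 202 ± 9.82 CPM against 185 ± 4.37 CPM (log2 0.13 ± 0.07, adjusted p = 0.147). The signs of both genes turned with total-count scaling, to -0.12 for Hadha and -0.16 for Hadhb in iCre and to -0.07 and -0.04 in LacZ, none of them called. The ratio of Hadha to Hadhb per kb had group means of 2.22 to 2.55, and libraries ranged from 2.05 to 2.81. Hadha overlaps Garem2 on the opposite strand by 75 exon bases.

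With the replicate number as a block, 5 of 9 members fell and 1 rose under TGFb in iCre, where 26.5% and 25.1% of all genes did. In LacZ 5 fell and 3 rose, where 30.3% and 28.1% of all genes did. The added genes were Acadl in both vectors and Hadha and Hadhb in LacZ, with the last 2 rising by 0.12 (adjusted p = 0.0341) and 0.15 (adjusted p = 0.0313). Without number 4 the counts were 4 falling and 2 rising in iCre (all genes 23.3% and 25.2%) and 5 falling and 3 rising in LacZ (all genes 25.3% and 27.3%). Sums of markers of other cells moved with TGFb too, but a sum may follow 1 gene. Over all libraries, those under IL-1b and bFGF included, Tnnt2 made up 93.2% of the cardiomyocyte list's level and Lipe 71.5% of the adipocyte list's. Tek made up 65.4% of the endothelial list's level and Lyz2 64.7% of the leukocyte list's. The 9 cardiomyocyte markers summed to 8.13 to 10.3 CPM in iCre TGFb against 22.6 to 91.9 CPM in iCre SS, and to 9.56 to 36.8 CPM in LacZ TGFb against 44.7 to 128 CPM in LacZ SS, with Tnnt2 leading. The 7 adipocyte markers, of which 5 stayed below 1 CPM everywhere, summed to 4.44 to 11.7 CPM in iCre TGFb against 10.3 to 23.9 CPM in iCre SS, and to 4.78 to 8.28 CPM in LacZ TGFb against 11.8 to 21.5 CPM in LacZ SS. The 8 endothelial markers summed to 8.80 to 12.1 CPM in iCre TGFb against 18.2 to 25 CPM in iCre SS, and to 9.09 to 14.8 CPM in LacZ TGFb against 19.1 to 36.4 CPM in LacZ SS, without overlap. The 6 mural cell markers overlapped, with 277 to 1163 CPM in iCre TGFb against 157 to 637 CPM in iCre SS and 242 to 468 CPM in LacZ TGFb against 195 to 665 CPM in LacZ SS. Leukocyte sums overlapped too, with medians of 134 CPM in iCre TGFb against 189 CPM in iCre SS, and of 128 CPM in LacZ TGFb against 236 CPM in LacZ SS. Of 10 cardiac fibroblast markers 5 fell in iCre and 6 in LacZ under TGFb, and 1, Col1a1, rose in both. In the fit without a block 18.1% of all genes fell and 20.2% rose in iCre, and 22.9% and 23.4% did in LacZ. The part of these marker changes in the results was not tested, and in bulk RNA fewer cells of a type and less RNA per cell cannot be told apart.

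**Figure D2:**
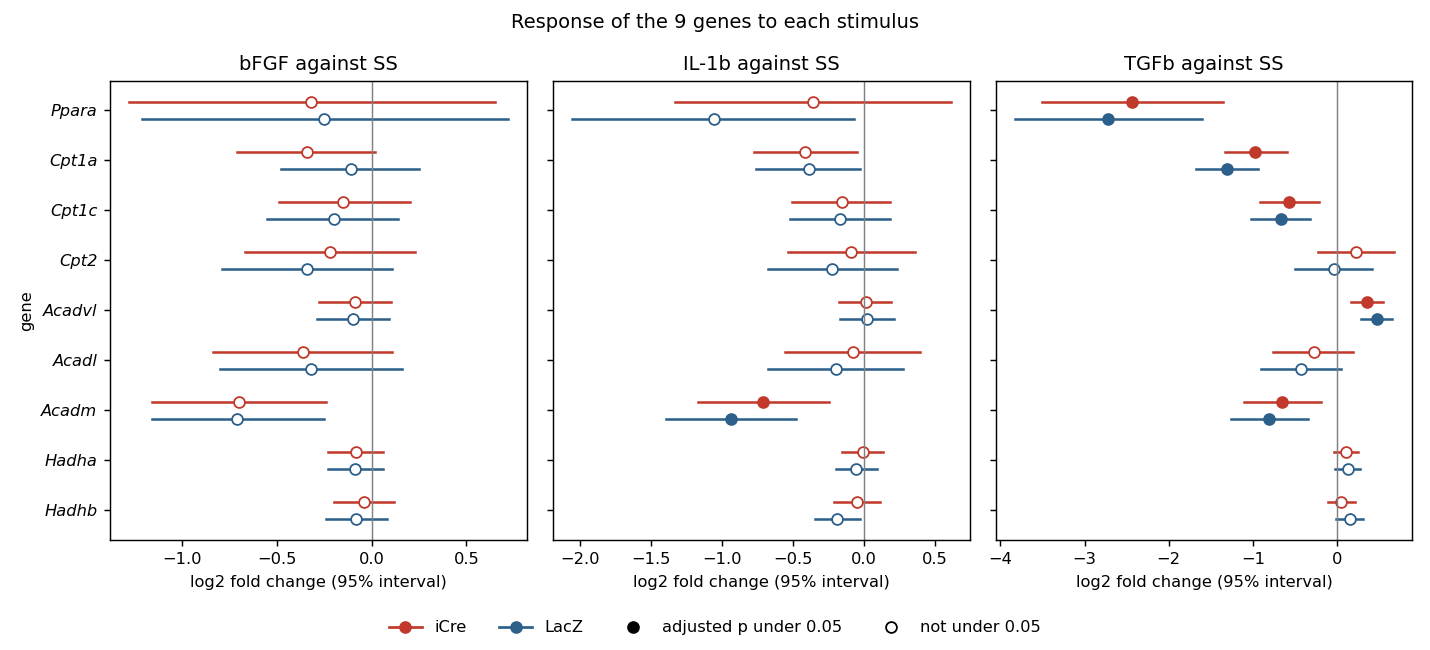
Log2 fold change of each gene against SS (points) with its 95% interval (lines) for bFGF, IL-1b and TGFb, iCre in red above LacZ in blue; filled points have an adjusted p under 0.05, and the 3 panels have different horizontal scales. Under TGFb Ppara, Cpt1a, Cpt1c and Acadm lie below 0 and Acadvl above it in both vectors, and under IL-1b only Acadm is filled.

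Under IL-1b 1 member, Acadm, fell in both vectors, and its call in iCre did not hold in every fit. It had 44.1, 47.0, 37.3 and 76.4 CPM in iCre libraries 1 to 4 under IL-1b, against 81.7, 89.5, 66.1 and 98.0 CPM in iCre SS. In LacZ it had 38.9, 41.7, 35.3 and 56.9 CPM under IL-1b, against 81.3, 86.8, 58.6 and 104 CPM in SS. Every pair of the same number was lower under IL-1b, and the groups overlapped only in iCre, through number 4. The log2 fold change was -0.71 ± 0.22 in iCre (adjusted p = 0.0292) and -0.94 ± 0.22 in LacZ (adjusted p = 0.00364). In iCre 1 of 9 members fell, where 6.84% of all genes fell, and in LacZ 1 of 9, where 8.13% did. The iCre call was lost without any 1 of 6 libraries (SS numbers 1, 2 and 4, IL-1b numbers 1, 2 and 3), with adjusted p up to 0.113. It was also lost with total-count scaling (adjusted p = 0.0677), with no filter on low counts (adjusted p = 0.0572) and when only the groups compared were fitted (adjusted p = 0.0892). The iCre call of Acadm was kept in edgeR with the number as a block (adjusted p = 6.92e-05) and without number 4 (adjusted p = 9.44e-05).

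Cpt1a was lower under IL-1b in 4 of 4 numbered pairs of each vector, at 172 ± 19 CPM against 230 ± 32.8 CPM in iCre SS and 176 ± 7.10 CPM against 231 ± 8.08 CPM in LacZ SS. Its log2 fold change of -0.42 ± 0.18 in iCre had an adjusted p of 0.116, and that of -0.39 ± 0.18 in LacZ an adjusted p of 0.128. With the number as a block it was called in both, at adjusted p = 0.0120 in iCre and 0.0129 in LacZ. That fit called 2 members lower in iCre (Cpt1a and Acadm), where 14.1% of all genes were lower, and 4 in LacZ (Ppara, Cpt1a, Acadm and Hadhb), where 15.6% were. Ppara in LacZ had 0.751, 0.553, 0.422 and 0.846 CPM under IL-1b against 1.39, 1.5, 0.783 and 1.72 CPM in SS, a log2 fold change of -1.06 ± 0.48 (adjusted p = 0.132, and 0.0229 with the block). Without number 4 the members called lower were 2 in iCre (11.6% of all genes) and 3 in LacZ (13.3%). Acadvl, which rose under TGFb, had log2 fold changes of 0.01 in iCre and 0.02 in LacZ under IL-1b, with 95% intervals of -0.18 to 0.19 and -0.17 to 0.21. The cardiomyocyte markers summed to 4.33 to 5.85 CPM in iCre IL-1b and 4.27 to 7.46 CPM in LacZ IL-1b, below the SS sums given above. Endothelial sums were 9.21 to 15.9 CPM in iCre IL-1b and 13.6 to 17.4 CPM in LacZ IL-1b, also below all SS sums of the same vector. Mural cell sums had medians of 165 CPM in iCre IL-1b against 612 CPM in iCre SS, and of 172 CPM in LacZ IL-1b against 572 CPM in LacZ SS, with ranges that overlapped. Leukocyte sums went the other way, with medians of 263 CPM in iCre IL-1b against 189 CPM in iCre SS. In LacZ the medians were 266 CPM under IL-1b and 236 CPM in SS, and the ranges overlapped in each vector. The part of these markers in the IL-1b results was not tested.

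Under bFGF no member passed the test in the fit without a block, and up to 4 did in other fits. All 9 members had fold changes below 0 in both vectors, with medians of -0.22 in iCre and -0.20 in LacZ beside -0.004 and -0.008 over all genes. The fit without a block in edgeR called 0 of 9 members, where 2.20% of all genes were called in iCre and 2.56% in LacZ. At an unadjusted p under 0.05 there was 1 member in each vector, beside 2742 of 16760 genes in iCre and 2760 in LacZ. By this count, in this fit alone, the members did not exceed the background. DESeq2 called 1 member in iCre and 0 in LacZ, beside 823 and 847 of 16685 genes. In each case that member was Acadm. It had 45.7, 49.5, 46.1 and 64.8 CPM in iCre under bFGF, against 81.7, 89.5, 66.1 and 98.0 CPM in SS. LacZ libraries had 47.4, 50.8, 49.1 and 55.2 CPM under bFGF, against 81.3, 86.8, 58.6 and 104 CPM in SS. The groups did not overlap in either vector. The log2 fold change was -0.70 ± 0.22 in iCre (adjusted p = 0.0933) and -0.71 ± 0.22 in LacZ (adjusted p = 0.088). With the number as a block these were -0.70 (adjusted p = 0.00137) and -0.67 (adjusted p = 0.00135).

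The blocked fit called 3 members lower under bFGF in iCre (Cpt1a, Acadl and Acadm), where 4.87% of all genes were lower, and 1 in LacZ (Acadm), where 5.20% were. Without number 4 the members called lower were 3 in iCre (Cpt1a, Cpt1c and Acadm), where 6.30% of all genes were lower, and 2 in LacZ (Cpt1c and Acadm), where 3.87% were. The bFGF cultures of number 4 held the highest Cpt1a level of their groups, 255 CPM in iCre and 253 CPM in LacZ, beside 143 to 175 CPM and 189 to 209 CPM in the other numbers. Endothelial sums were 12.3 to 15.8 CPM in iCre bFGF, below the SS sums, and 14.1 to 21.2 CPM in LacZ bFGF, overlapping them. Cardiomyocyte sums were 5.93 to 23.6 CPM in iCre bFGF and 11.3 to 36.6 CPM in LacZ bFGF, and the part of these markers in the bFGF results was not tested. Ordered by group means, Acadm was highest in the SS groups and lower in the other 6, which overlapped each other at 43.2 to 53.5 CPM. Ppara separated only the TGFb groups from the group next above them. Acadvl likewise separated the TGFb groups from the next group below. For Cpt1c only LacZ TGFb, at most 76.7 CPM, lay apart from the group next above it, iCre IL-1b, at 78.8 CPM or more. The Cpt1c values of iCre TGFb overlapped those of iCre IL-1b through number 4, at 83.2 CPM. In the order of Cpt1a, Cpt2, Acadl, Acadm, Hadha and Hadhb every group overlapped its neighbours.

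Setting iCre against LacZ addresses recombination at the floxed Pkm allele. No member was called in SS, bFGF, IL-1b or TGFb, where 0% of all genes were called in each. These calls, and 0 members with an unadjusted p under 0.05 in any of the 4 conditions, beside 251 to 526 genes, come from the fit without a block. DESeq2 called 0 members. With a block per pair of the same condition and number, 1 member had an unadjusted p under 0.05 in SS, 1 in bFGF, 2 in IL-1b and 2 in TGFb. Of all 16760 genes 1324, 1456, 966 and 1820 did. That fit called 0 members in each condition, where 14, 15, 0 and 46 genes were called. Averaged over the 4 conditions 0 members were called, where 0.107% of all genes were, and with the number as a block 0 members, where 2.83% were. With a block per pair 0 members were called on average, where 982 of 16760 genes were, and the lowest adjusted p of a member was 0.0572. Without a block the averaged differences ran from -0.11 for Cpt1c (adjusted p = 0.847) to 0.12 for Acadl and Acadm on the log2 scale. Their 95% intervals reached from -0.29 to 0.36 for the 8 genes other than Ppara, and from -0.47 to 0.48 for Ppara, so larger differences lie outside them. None of the 3 interactions of vector and stimulus called a member, where 0% of all genes were called, none had an unadjusted p under 0.05 among the 9, and DESeq2 called 0. The TGFb response of Cpt1a differed between vectors by 0.34 on the log2 scale (95% interval -0.18 to 0.86, unadjusted p = 0.187, adjusted p = 1).

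**Figure D3:**
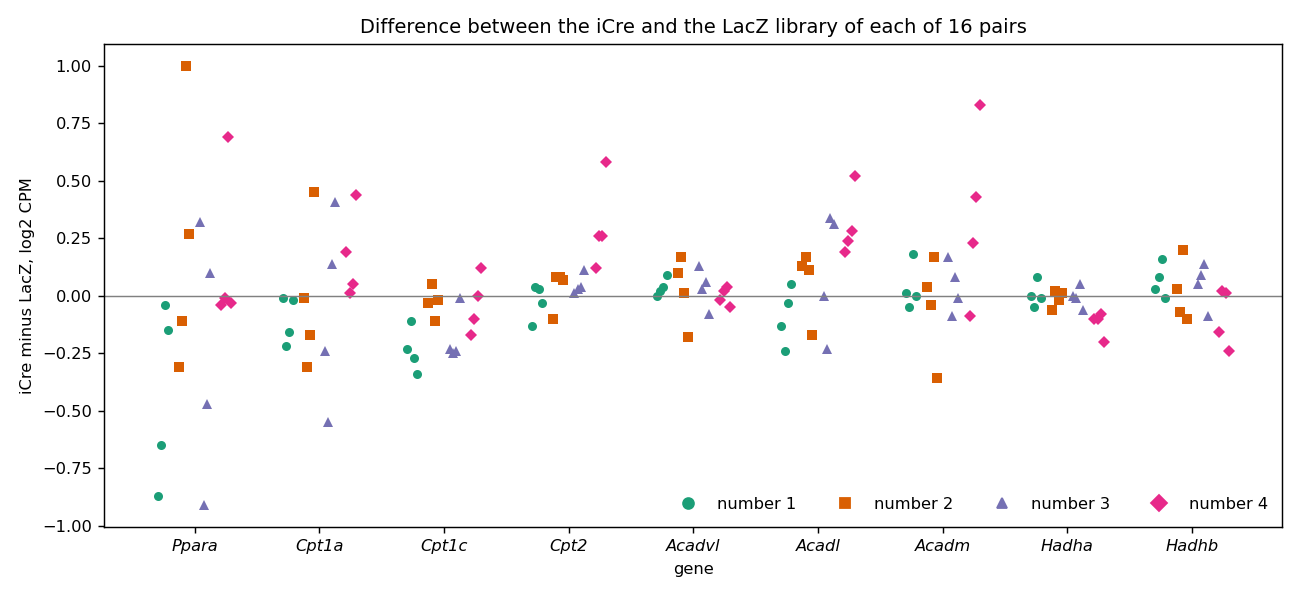
Difference in log2 CPM between the iCre and the LacZ library of each pair of the same condition and number, for each gene, with 4 conditions for each of the 4 numbers (colour and symbol). For Cpt2 and Acadl the points of number 4 lie above 0 in all 4 conditions, and points below 0 come from numbers 1 and 2 for Cpt2 and from numbers 1 to 3 for Acadl.

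Between the numbers the vector difference varied. Cpt1c was lower in iCre in 13 of 16 pairs, with means by number of -0.24, -0.03, -0.18 and -0.04 for numbers 1 to 4. Cpt2 was higher in iCre in 13 of 16 pairs, with number 4 at 0.30 and the other numbers between -0.02 and 0.05. Acadm and Acadl had their largest difference in number 4 as well, 0.35 and 0.31. With the 4 number means as the units, an exact sign-flip test (two-sided) gave Cpt1c the smallest p that 4 units allow, which cannot pass 0.05, and p of 0.25 to 1 for the other 8 genes.

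Across the 32 libraries, after the mean of each number was removed, the members were correlated in both directions. Ppara and Cpt1a had a Pearson correlation of log2 CPM of 0.87, Cpt1a and Cpt1c of 0.86, and Acadvl and Hadha of 0.81. Hadha and Hadhb, which share a promoter region, had 0.66. Cpt1a and Acadvl had -0.85, and Ppara and Acadvl -0.80. The median over all 36 pairs of members was 0.18. These values describe 32 libraries of 8 groups that share stimuli and numbers. The protein-coding genes with the most similar profiles were Zhx1, Smarca2 and Dzip1 for Ppara (0.93 each), and Cdc42bpg (0.97) and Mier1 (0.96) were among those for Cpt1a. For the mean z-score of Cpt1a, Cpt2, Acadvl, Acadl, Acadm, Hadha and Hadhb they were Rilpl1, Clpx and Hsdl2 (0.84 to 0.87).

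Of 93 genes in 7 lists of the surrounding pathway 88 were tested. Under TGFb 33 fell and 11 rose in iCre, where 18.1% of all genes fell and 20.2% rose, and 35 fell and 14 rose in LacZ, where 22.9% and 23.4% did. Under IL-1b 12 fell and 10 rose in iCre, where 1146 of the 16760 genes fell and 1488 rose. In LacZ 15 fell and 10 rose under IL-1b, where 1363 fell and 1853 rose. Under bFGF 4 fell and 0 rose in iCre, where 126 of all genes fell and 242 rose, and 4 fell and 3 rose in LacZ, where 154 and 275 did. With the number as a block the bFGF counts were 11 falling and 6 rising in iCre (816 and 1100 of all genes) and 11 falling and 8 rising in LacZ (871 and 1177 of all genes). The block also raised the number falling under TGFb to 40 in iCre and 43 in LacZ, and under IL-1b to 17 and 21. For iCre against LacZ none of the 88 was called in any condition or on average without the block. With it 2 of the 88 rose on average, where 186 of all genes rose. The TGFb shares of all genes apply to each list below. The medians under TGFb were -0.23 in iCre and -0.24 in LacZ.

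Genes of ketone body use and transport moved in both directions. Oxct1, which activates acetoacetate, fell under bFGF (log2 -0.70 in iCre, adjusted p = 0.0236, and -0.63 in LacZ, adjusted p = 0.0327) and under IL-1b (-0.60, adjusted p = 0.0111, and -0.50, adjusted p = 0.0293). Slc16a1, the monocarboxylate transporter MCT1, rose under IL-1b, with 61.0 to 102 CPM against 18.3 to 23.7 CPM in SS in iCre and 49.1 to 104 CPM against 18.3 to 25.5 CPM in LacZ (log2 1.97 and 2.01, adjusted p = 2.42e-08 and 1.48e-08). Under TGFb Aacs, the cytosolic acetoacetyl-CoA synthetase, rose by 1.09 in iCre and 1.38 in LacZ on the log2 scale (adjusted p = 0.000246 and 1.12e-05). Bdh1, the hydroxybutyrate dehydrogenase, rose by 2.24 and 2.28 (adjusted p = 0.000628 and 0.000385), with 1.87 to 2.64 CPM in iCre TGFb against 0.333 to 0.726 CPM in iCre SS and 1.68 to 3.10 CPM in LacZ TGFb against 0.0468 to 1.04 CPM in LacZ SS.

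**Figure D4:**
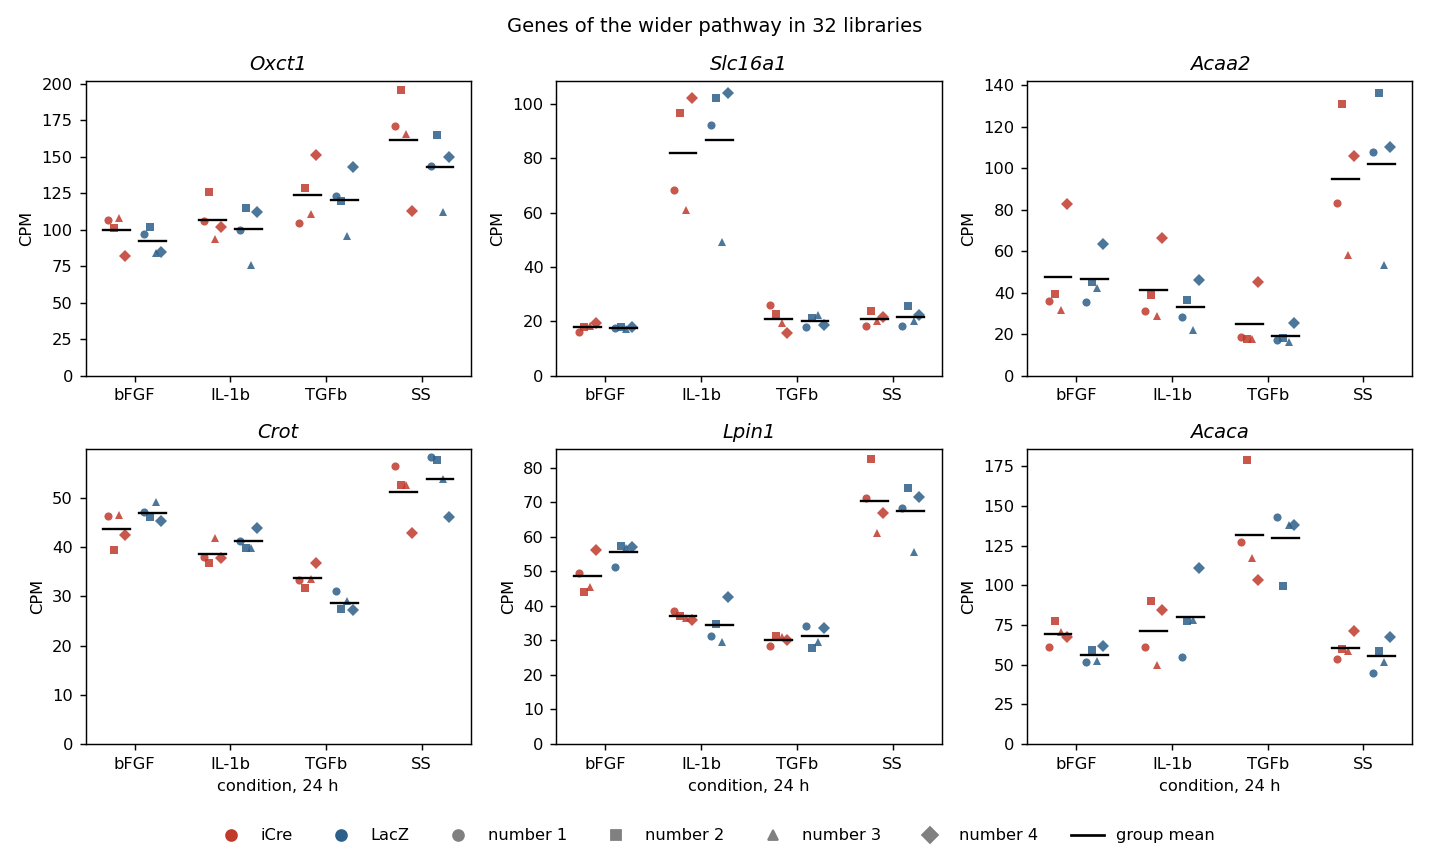
CPM of 6 genes around the members in each library by condition, iCre in red left of LacZ in blue, symbols giving the library number and bars the group mean; axes are linear from 0. The group means of Oxct1 are lower under bFGF and IL-1b than in SS and those of Slc16a1 are highest under IL-1b, while the group means of Acaa2, Crot and Lpin1 are lowest and those of Acaca highest under TGFb.

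Of 10 genes of the later mitochondrial steps 3 fell under TGFb in each vector and 0 rose. Acaa2, the medium-chain thiolase, had 18.5, 17.6, 17.7 and 45.0 CPM in iCre TGFb against 83.0, 131, 58.2 and 106 CPM in iCre SS. LacZ libraries had 17.3, 18.3, 16.2 and 25.5 CPM against 108, 136, 53.2 and 110 CPM. The groups did not overlap, and number 4 was the highest TGFb library in both vectors (log2 -1.93 ± 0.37 in iCre, adjusted p = 0.000177, and -2.39 ± 0.38 in LacZ, adjusted p = 1.08e-05). Acaa2 also fell under IL-1b, by 1.19 in iCre (adjusted p = 0.0236) and 1.62 in LacZ (adjusted p = 0.0022), whereas the hydratase gene Echs1 rose there in LacZ by 0.59 (adjusted p = 0.0448). Hadh, the dehydrogenase for shorter chains, and Eci2, an enoyl-CoA isomerase, fell under TGFb by 0.76 and 0.59 in iCre and by 0.82 and 0.65 in LacZ. Of 13 genes of the carnitine shuttle and partner dehydrogenases 6 fell in each vector under TGFb, while 1 rose in iCre and 2 in LacZ. Acad12 was at -1.07 in iCre and -1.51 in LacZ, and Acadsb, which acts on branched short chains, at -0.53 and -0.60.

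Of 13 peroxisomal genes 7 fell in iCre and 8 in LacZ under TGFb and 0 rose, where 18.1% of all genes fell in iCre and 22.9% in LacZ, with list medians of -0.30 and -0.37. Crot, which exports shortened chains as carnitine esters, had 31.7 to 36.8 CPM in iCre TGFb against 42.9 to 56.6 CPM in iCre SS, and 27.2 to 31.1 CPM in LacZ TGFb against 46.1 to 58.4 CPM in LacZ SS. Its log2 fold change was -0.60 ± 0.08 in iCre (adjusted p = 2.76e-06) and -0.91 ± 0.08 in LacZ (adjusted p = 3.43e-09). Acox3, an acyl-CoA oxidase, fell by 0.80 in iCre (adjusted p = 6.24e-05) and 0.98 in LacZ (adjusted p = 2.99e-06). Under IL-1b Crot fell by 0.41 in iCre (adjusted p = 0.000889) and 0.39 in LacZ (adjusted p = 0.00106).

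Uptake and activation genes moved both ways. Under TGFb 5 of 13 fell and 3 rose in each vector, where 18.1% of all genes fell and 20.2% rose in iCre and 22.9% and 23.4% did in LacZ. Slc22a5, the carnitine importer, was at -0.78 in iCre and -1.08 in LacZ (adjusted p = 0.000319 and 3.93e-06), and the fatty acid transport protein gene Slc27a4 at 0.40 and 0.46 (adjusted p = 0.00317 and 0.000695). Under IL-1b the acyl-CoA synthetase genes Acsl5 and Acsl1 rose, Acsl5 to 124 to 306 CPM in iCre against at most 89.2 CPM in SS, and to 210 to 286 CPM in LacZ against at most 94.4 CPM. Their log2 fold changes were 1.71 and 0.80 in iCre and 1.83 and 1.00 in LacZ.

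In the list of PPAR partners and malonyl-CoA control 7 of 20 tested genes fell and 3 rose in iCre under TGFb, and 9 fell and 3 rose in LacZ. Lpin1, known as a coactivator of PPARα in liver and as a phosphatidate phosphatase, was at -1.22 in iCre and -1.11 in LacZ (adjusted p = 7.62e-09 and 1.14e-08). Rxra, the partner receptor, was at -0.60 and -0.71 (adjusted p = 3.13e-05 and 2.20e-06). Both acetyl-CoA carboxylase genes moved, in opposite directions: Acacb, whose malonyl-CoA is made at mitochondria, by -1.78 in iCre and -2.40 in LacZ, and the cytosolic form Acaca by 1.12 and 1.22. Ppard rose under IL-1b, by 0.42 in iCre and 0.53 in LacZ (adjusted p = 0.00186 and 0.000147), where Pparg fell by 1.17 and 1.25 (adjusted p = 0.018 and 0.0106).

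PPAR target genes outside beta-oxidation moved both ways. Of 10 tested under TGFb 3 fell and 2 rose in iCre, and 3 fell and 4 rose in LacZ. Pdk4, the kinase that switches off pyruvate dehydrogenase, was at -1.41 in iCre and -1.88 in LacZ (adjusted p = 0.00021 and 4.88e-06). Angptl4, an inhibitor of lipoprotein lipase, fell under TGFb by 1.99 and 2.51 (adjusted p = 0.00985 and 0.00145) and rose under IL-1b by 2.48 and 2.5 (adjusted p = 0.00552 and 0.00407). Fgf21, a hormone gene that PPARα activates in liver, had 15.4, 14.4, 13.6 and 3.15 CPM in iCre TGFb and 15.3, 20.2, 13.6 and 14.6 CPM in LacZ TGFb. It had at most 0.333 CPM in iCre SS and 0.187 CPM in LacZ SS, and it rose in both vectors (adjusted p = 3.82e-07 and 5.72e-08).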

How the data were processed

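Raw read counts per gene were analysed as the authors deposited them. Per the submitters' processing notes, FastQC 0.10.1 was used, HTSeq 0.10.0 counted reads, and the build was mm10 (GRCm38). The aligner, annotation release, strand and counting mode are not stated in the sources used here. Of 55414 IDs, 52133 (99.77% of counts) matched GENCODE M21, which gave symbols, coordinates and exon lengths. No 2 libraries agreed within sampling noise (lowest chi-square per degree of freedom 9.81).

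The 32 libraries were fitted in 1 model of 8 group means with edgeR 4.0.16 (R 4.3.3; TMM, filter by group, robust quasi-likelihood), 14 contrasts, two-sided, with Benjamini-Hochberg adjustment over 16760 genes. CPM are counts per 1000000 reads scaled by TMM factors. DESeq2 1.42.0 was the other tool, and figures used matplotlib 3.10.9. The steps were tested on simulated data. Deviations of same-numbered libraries correlated at 0.153 to 0.857 over 40 pairs, each above 0.1, so the numbers pair the libraries; blocked values stand where they change a call. Alternatives were the block, a block per pair, other scalings and filters, only the groups compared, summed counts, and fits without number 4 or any 1 library. The fit without number 4 that also held the block was added after seeing the data.

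The members and lists were chosen with earlier results of these data known. All 9 members are named, and of each other list up to 4 genes with the smallest p per contrast were eligible. Promoter windows come from RefSeq (GRCm38.p6), whose gene starts can differ from those of GENCODE. Protein sequences were not used here, and some eligible genes are not reported here.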

Additional observations from a re-analysis of the deposited data

Results flagged for a closer look

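Of 72 groups of 4 libraries (9 genes, 8 groups), 7 held a library whose gap to its nearest neighbour exceeded, as a share of the group's range, the 95% critical value of Dixon's test, and chance flags about 1 in 20 groups. Each of the 7 was a library of number 4. Cpt1c had 130 CPM in LacZ bFGF, with the next library at 81.0 CPM, and 83.2 CPM in iCre TGFb, with the next at 60.4 CPM. Cpt2 had 39.5 CPM in iCre SS and 39.8 CPM in iCre IL-1b, with the next libraries at 28.4 and 25.9 CPM. Acadl had 72.7 CPM in LacZ bFGF, with the next at 54.7 CPM, and Acadm had 85.3 CPM in iCre TGFb, with the next at 45.4 CPM. Hadha had 165 CPM in iCre TGFb, below the other 3, of which the lowest had 202 CPM.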

How the results depend on the processing

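The counts of members called against SS moved as follows (bFGF iCre 0, IL-1b iCre 1, bFGF LacZ 0, IL-1b LacZ 1, TGFb LacZ 5 as reported). With a replicate block they were 3, 2, 1, 4 and 8, without number 4 they were 3, 2, 2, 3 and 8, and without number 4 and with a replicate block 4, 2, 4, 4 and 8. DESeq2 gave 1 for bFGF in iCre. For IL-1b in iCre total-count scaling, no filter on low counts and fitting only the groups compared gave 0 each. For IL-1b in LacZ total-count scaling gave 2 and only the groups compared gave 3. Leaving out 1 library gave 0 to 1 for bFGF in iCre, IL-1b in iCre and bFGF in LacZ. The count for TGFb in iCre, 5 as reported, was 6 with a replicate block and 6 without number 4. It was 7 without number 4 and with a replicate block, and 4 with total-count scaling or only the groups compared. Without single libraries it was 4 to 7.

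The averaged iCre against LacZ difference of Ppara turned to -0.04 (replicate block), -0.10 (without number 4), -0.13 (that with the block), -0.05 (pair block) and -0.13 (counts summed over conditions), and to between -0.13 and 0.08 without single libraries. That of Cpt1a turned to -0.06 without number 4, with or without the block, and -0.04 with summed counts, with single-library values from -0.04 to 0.06. Total-count scaling gave -0.05 for Acadvl under IL-1b in both vectors, -0.12 in iCre and -0.07 in LacZ for Hadha under TGFb, and -0.16 in iCre and -0.04 in LacZ for Hadhb. Hadha under IL-1b in iCre was 0.02 without number 4, with or without the block. None of these reversed values was called, and their cause was not tested.

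Without single libraries the signs also turned for Cpt2 under IL-1b in iCre (-0.28 to 0.06), under TGFb in iCre (-0.15 to 0.38) and in LacZ (-0.21 to 0.08). They turned for Acadvl under IL-1b (-0.06 to 0.06 in iCre, -0.02 to 0.07 in LacZ), Acadl under IL-1b in iCre (-0.21 to 0.08), Hadha under IL-1b in iCre (-0.04 to 0.05) and Hadhb under bFGF in iCre (-0.09 to 0.02).
Of 513 values of the 9 genes under the other alternatives 447 kept sign and side of the threshold, 45 gained a call and 5 lost it. Depth limits Ppara most, with 2 to 9 reads per TGFb library.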
